A study of Mus musculus with 6 samples.

Results

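The Id and E protein family of helix-loop-helix transcription regulators was followed in splenic natural killer (NK) cells of mice that lack Rroid. Its 7 genes, of 37991 in the count files, were taken by symbol: the inhibitors Id1, Id2, Id3 and Id4, and the E protein genes Tcf3, Tcf4 and Tcf12. All cells were CD27+ CD11b+ NK cells, a stage of intermediate maturity, from spleens of mice on the C57BL6 background. There were 3 Rroid deficient libraries and 3 wildtype libraries, both from RNA sequencing of total RNA, and the labels give no treatment, age or allele beyond the genotype. Rroid is a long noncoding RNA made from a regulatory element near Id2 on chromosome 12. The comparison asks how that gene and its partners differ between the genotypes. With no allele stated, loss of the RNA and loss of the element's DNA cannot be told apart.

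E proteins are transcription factors that dimerize through a helix-loop-helix and bind the E-box, written CANNTG, through an adjoining basic region. Id proteins keep the helix-loop-helix but have no basic region, so a dimer of an Id and an E protein does not bind DNA. The outcome in a cell is set by the amounts of both, and in the NK and innate lymphoid lineages Id2 is the Id protein known to be needed for the cells to form and persist. These measurements are of transcripts, and neither proteins nor dimers were measured.

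The promoters of Id2, Id3 and Tcf3 are shown for the letters that E proteins read, Id2 as the member whose change passed the test, Id3 as the other Id gene with reads and Tcf3 as the E protein gene with the lowest fold change. They are the 250 bases before each annotated start, from RefSeq on build GRCm38.p6, 5′ to 3′ on the gene's strand, with CANNTG in capitals.
Id2 promoter (chr12:25096093-25096342, - strand): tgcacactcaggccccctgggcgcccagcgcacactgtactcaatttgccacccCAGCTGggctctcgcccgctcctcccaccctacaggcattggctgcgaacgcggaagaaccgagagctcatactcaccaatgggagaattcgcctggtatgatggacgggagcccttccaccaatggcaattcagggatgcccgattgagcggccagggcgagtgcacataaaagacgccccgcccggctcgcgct
Id3 promoter (chr4:136143572-136143821, + strand): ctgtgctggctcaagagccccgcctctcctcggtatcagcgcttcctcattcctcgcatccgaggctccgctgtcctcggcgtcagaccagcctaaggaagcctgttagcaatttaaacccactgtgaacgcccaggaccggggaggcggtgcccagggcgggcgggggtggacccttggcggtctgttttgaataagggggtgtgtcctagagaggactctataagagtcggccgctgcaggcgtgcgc
Tcf3 promoter (chr10:80433636-80433885, - strand): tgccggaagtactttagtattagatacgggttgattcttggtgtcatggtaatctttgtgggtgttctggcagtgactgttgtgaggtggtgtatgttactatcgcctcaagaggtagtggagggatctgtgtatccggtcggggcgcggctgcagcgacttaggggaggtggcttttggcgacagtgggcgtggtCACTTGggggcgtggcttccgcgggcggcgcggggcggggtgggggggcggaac
Of the 7 members, 5 matched an entry in this table: Id2, Id3, Id4, Tcf3 and Tcf12. The Id2 window held 1 E-box, CAGCTG, that began at position -196 from the start, and the Tcf3 window held 1, CACTTG, at position -54. Id3 and Id4 held none in the window, and Tcf12 held 1 in 2 of its 3 annotated start windows. The motif reads the same on both strands as CANNTG, and 66.2% of all 32851 windows of this length held at least 1; CAGCTG was in 13.0%. A match describes letters in a window, not binding.

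Reads assigned to genes numbered 6146465 to 7363793 in the deficient libraries and 5823626 to 9216430 in the wildtype libraries. All 10 NK cell markers examined had reads in the libraries, with Ncr1, which encodes the receptor NKp46, at 5516 to 7013 counts in deficient and 6464 to 9525 counts in wildtype libraries. The NK markers summed to 8461 to 8579 CPM (read counts scaled to a common library size) in deficient and 10424 to 12863 CPM in wildtype libraries. Gzma was the largest of them in every library, at 2315 to 2726 CPM in deficient and 3917 to 5496 CPM in wildtype libraries. Gzma, Klrk1 and Klrb1c lay wholly lower in deficient libraries, as did 6.33% of all tested genes, and the other NK markers overlapped. Of 10 T cell markers, 8 had a read somewhere, and their summed level was 91.7 to 147 CPM in deficient and 17.2 to 24.7 CPM in wildtype libraries. Cd3d and Cd3g carried most of the deficient sum, and Trac had 1, 58 and 82 counts in deficient and 0, 47 and 11 counts in wildtype libraries. Cd4 and Cd8b1 went the other way, with 0 counts in every deficient library and 57 and 37 counts in wildtype library 1 alone. Cd8a and Cd6 were at 0 throughout, Cd3e had 0 counts in every deficient library and 0, 3 and 0 in wildtype, and the part of T cell transcripts in the results was not tested. B cell markers summed to 11.9 to 52.8 CPM in deficient and 7.94 to 11.6 CPM in wildtype libraries, with Pax5 at 0 in all. Erythroid markers summed to 0 to 3.87 CPM in deficient and 4.30 to 16.6 CPM in wildtype libraries. Myeloid markers summed to 380 to 438 CPM in deficient and 420 to 502 CPM in wildtype libraries, nearly all from Itgax. Markers of ILC2 and ILC3, other innate lymphoid cells, summed to 55.5 to 84.3 CPM in deficient and 50.2 to 74.0 CPM in wildtype libraries, with Il22 at 0 in all. Among the genes tested, the share without a single read was 5.57%, 2.43% and 0.392% in deficient libraries 1, 2 and 3, and 5.63%, 0.281% and 0.230% in wildtype libraries 1, 2 and 3. Library 1 of each genotype thus had the highest share, and deficient library 2 lay between these and the others.

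Among the inhibitors, Id2 carried nearly all the reads. Values are CPM after scaling by TMM, which sets a factor per library to offset differences in composition. Id2 stood at 38.9, 66.7 and 81.2 CPM in deficient libraries 1 to 3, against 468, 338 and 341 CPM in wildtype libraries 1 to 3. Every deficient library lay below every wildtype library, and the lowest wildtype value was over 4 times the highest deficient one. The counts behind these values were 270, 409 and 587 in deficient and 3121, 3148 and 2171 in wildtype libraries. Deficient over wildtype, Id2 had a log2 fold change of -2.62 with an SE of 0.30 (95% interval -3.29 to -1.95; adjusted p = 0.0308 in the quasi-likelihood test of edgeR, Benjamini-Hochberg over 11724 genes). On the fold scale this is 6.14-fold lower in deficient cells, and the interval leaves 10.2% to 25.9% of the wildtype level. As the libraries are bulk, fewer Id2-expressing cells and less Id2 RNA per cell cannot be told apart.

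Id2 was the 1 of the 4 tested members that passed; over all genes 0.0171% passed, 2 of 11724. It was also the 1 tested member with no overlap between genotypes, where 6.33% of tested genes lay wholly lower in deficient libraries. In this edgeR fit the Id2 call needed all 6 libraries: with any 1 left out the log2 fold change was -2.86 to -2.37, but the adjusted p was 0.0589 to 0.316. With all 6 libraries the Id2 adjusted p was 3.79e-14 in DESeq2 on the same genes, 0.0382 in limma-voom and 2.99e-17 in edgeR without the filter; no library was left out of those fits.

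Id1 and Id4 gave no read in any library. A count of 0 allows up to 3 counts, which is 0.415 to 0.489 CPM in deficient and 0.322 to 0.472 CPM in wildtype libraries, for counting error only. Neither Id1, known from stem and endothelial cells, nor Id4, known from the nervous system, was thus detectable at this depth in either genotype. Id3, an inhibitor with known roles in T and B cells, had 0, 13 and 6 counts in deficient libraries 1 to 3 and 0, 0 and 0 in wildtype libraries. This is 0, 2.12 and 0.830 CPM in the deficient libraries. Id3 reads thus appeared in 2 of 3 deficient libraries and no wildtype library, at levels too low for the filter on low counts. In edgeR without that filter Id3 had an unadjusted p of 0.0478 and an adjusted p of 0.666, and in DESeq2 an unadjusted p of 0.159.

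**Figure D1:**
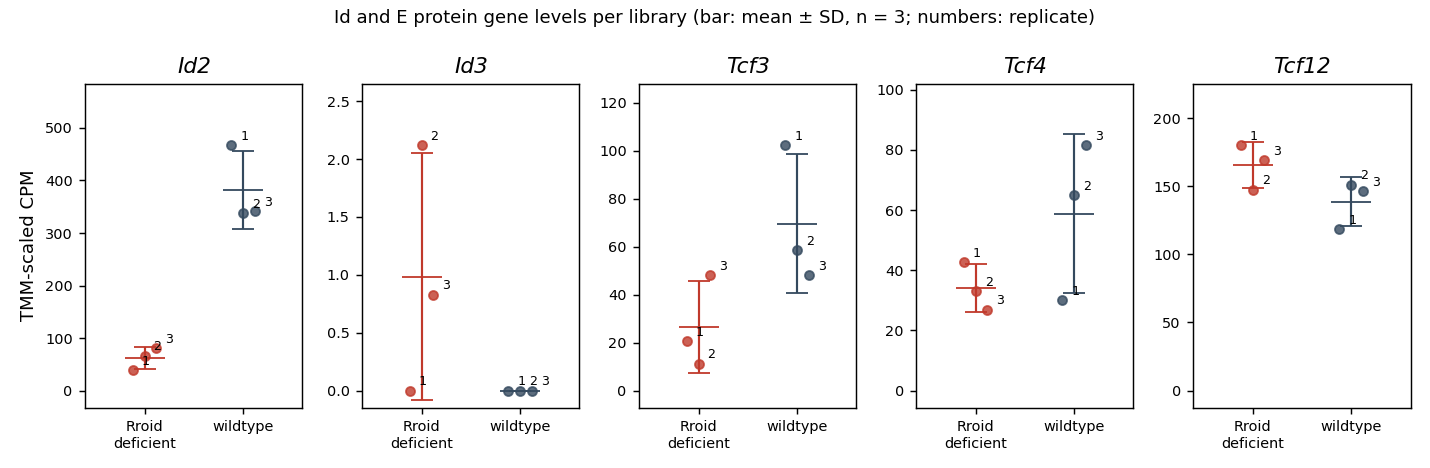
CPM (TMM-scaled, linear axes of different range) of the 5 members with any read, 1 point per library with its replicate number and mean ± SD (n = 3) per genotype. Id2 is separated by genotype, at no more than 81.2 CPM in deficient and no less than 338 CPM in wildtype libraries, while the 3 E protein genes overlap.

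The E protein genes were all expressed, and none passed over all genes tested. Of the 3, 1 had an unadjusted p under 0.05 in edgeR, where 5.29% of all tested genes did, and none passed in DESeq2 or limma-voom, which called 0.569% and 0.00853% of all genes. Tcf3, which encodes the E proteins best known from B and T cell commitment, had 20.6, 11.3 and 48.0 CPM in deficient libraries 1 to 3, against 102, 58.5 and 48.0 CPM in wildtype libraries 1 to 3. Deficient library 3 and wildtype library 3 were level, at 47.983 and 47.976 CPM, which is where the genotypes met; the other deficient libraries lay below all wildtype ones. Its log2 fold change was -1.38 with an SE of 0.56 (95% interval -2.63 to -0.14; edgeR unadjusted p = 0.0328, adjusted p = 0.914). Single libraries moved that value: it was -2.13 without deficient library 3, -1.02 without deficient library 2 and -1.01 without wildtype library 1, with edgeR adjusted p of 0.591, 0.900 and 0.999.

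Tcf4, an E protein gene required for plasmacytoid dendritic cells and also used by B cells, had 42.7, 32.95 and 26.8 CPM in deficient libraries 1 to 3. In wildtype libraries 1 to 3 it had 30.0, 65.0 and 81.6 CPM. Wildtype library 1 lay within the deficient range and the other wildtype libraries above it. Tcf4 had a log2 fold change of -0.79 (SE 0.45; 95% interval -1.79 to 0.22, edgeR adjusted p = 0.925). Without library 1 of both genotypes, left out after seeing the data, it was -1.30 (edgeR unadjusted p = 0.00495, adjusted p = 0.713), and without wildtype library 3 alone it was -0.48 (edgeR unadjusted p = 0.407, adjusted p = 0.977). Markers of plasmacytoid dendritic cells summed to 82.9 to 174 CPM in deficient and 80.4 to 142 CPM in wildtype libraries, nearly all of it from Runx2. Their defining member Siglech had 0 counts in each deficient library and 0, 1 and 0 in wildtype.

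Tcf12, which encodes the E protein HEB of thymocyte development, had the smallest spread within both genotypes among the tested members. It had 180, 147 and 169 CPM in deficient libraries 1 to 3, against 118, 151 and 147 CPM in wildtype libraries 1 to 3. Deficient library 2 fell within the wildtype range and the other deficient libraries above it. Its log2 fold change was 0.25 (SE 0.22; 95% interval -0.25 to 0.76, edgeR adjusted p = 0.931), so the interval covers 0.843 to 1.69 times the wildtype level. The spread between libraries of 1 genotype was 10.1% of the mean in deficient and 12.8% in wildtype libraries for Tcf12. For Tcf3 it was 71.7% in deficient and 41.4% in wildtype libraries, for Tcf4 23.4% in deficient and 44.8% in wildtype libraries, and for Id2 34.5% in deficient and 19.3% in wildtype libraries.

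**Figure D2:**
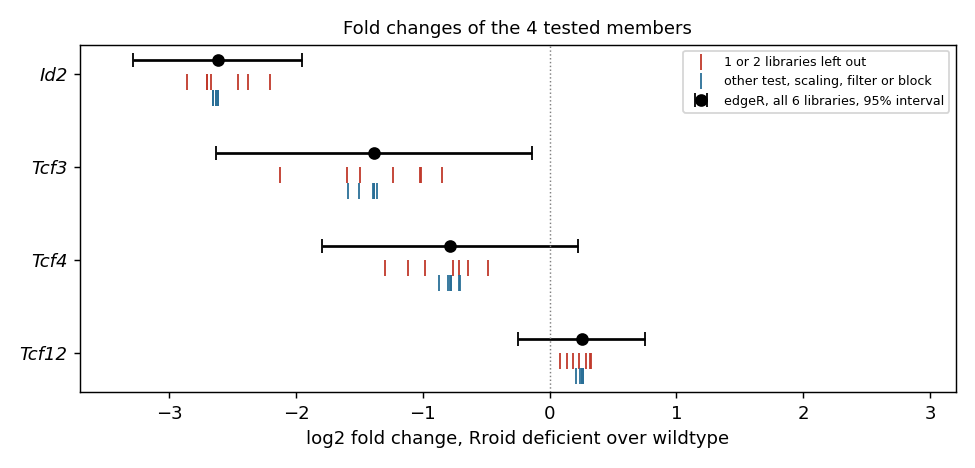
Log2 fold changes, deficient over wildtype, of the 4 tested members: black points are edgeR values with 95% intervals, red ticks the values with 1 or 2 libraries left out, and blue ticks those under another test, scaling, filter or block. Id2 stays between -2.86 and -2.20 in all of these, Tcf3 and Tcf4 stay below 0 and Tcf12 stays above 0.

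Levels of different genes are compared per length, as CPM per kilobase of exon. All exons annotated for a gene, merged, came to 2438 bases for Id2, 4039 for Tcf3, 15529 for Tcf12 and 27382 for Tcf4. On this scale the order in wildtype cells was Id2 at 157 ± 30.3, Tcf3 at 17.2 ± 7.13, Tcf12 at 8.94 ± 1.14 and Tcf4 at 2.15 ± 0.963 CPM per kilobase (SD, n = 3), and no neighbours in this order overlapped. In deficient cells the order was Id2 at 25.5 ± 8.81, Tcf12 at 10.7 ± 1.07, Tcf3 at 6.59 ± 4.73 and Tcf4 at 1.247 ± 0.292 CPM per kilobase, and there Tcf12 and Tcf3 overlapped. The merged exons of Tcf4 and Tcf12 are much longer than a typical coding transcript of theirs, whose median was 2348.5 and 4308 bases, against 1270 for Id2 and 2840.5 for Tcf3. With these lengths, an alternative added after seeing the data, wildtype cells had 301 CPM per kilobase for Id2, 32.2 for Tcf12, 25.1 for Tcf4 and 24.5 for Tcf3. Deficient cells then had 49.0 for Id2, 38.4 for Tcf12, 14.5 for Tcf4 and 9.37 for Tcf3. Id2 had the highest mean in both genotypes with either length, but with coding transcript length it overlapped Tcf12 in deficient cells, at 30.6, 52.5 and 63.9 CPM per kilobase for Id2 and 41.9, 34.2 and 39.2 for Tcf12 in deficient libraries 1 to 3. The order among E protein genes depended on the length used.

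The balance of inhibitors to E proteins was taken per library as the 4 Id genes summed over the 3 E protein genes summed, both in CPM per kilobase of merged exon. It is a description with no test, since it combines genes chosen with their results known. The ratio of Id to E protein transcripts was 0.874, 2.12 and 1.42 to 1 in deficient libraries 1 to 3, against 5.63, 5.21 and 5.76 to 1 in wildtype libraries 1 to 3. On this merged exon scale all wildtype libraries thus sat close together above 5, and deficient library 1 alone had less Id than E protein transcript. On the log2 scale the ratio averaged 0.46 ± 0.64 in deficient and 2.47 ± 0.08 in wildtype libraries (SD, n = 3 each), a difference of -2.002, or 4.01-fold. Id2 made up 100%, 95.9% and 98.6% of the Id sum in deficient libraries 1 to 3 and 100% in each wildtype library.

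Both sides of the ratio lay lower in the deficient libraries, by different amounts. The Id sum was 15.96, 28.6 and 33.8 CPM per kilobase in deficient libraries 1 to 3, against 192, 139 and 140 in wildtype libraries 1 to 3. The E protein sum was 18.3, 13.5 and 23.7 CPM per kilobase in deficient libraries 1 to 3, against 34.1, 26.6 and 24.3 in wildtype libraries 1 to 3. The E protein sums came close, 23.7 in deficient library 3 and 24.3 in wildtype library 3, but did not overlap. By level, 6.33% of all tested genes lay wholly lower in deficient libraries. Each E protein gene on its own overlapped and none passed, so the lower sum is a description only. With median coding transcript length the E protein sum was 62.3 ± 8.77 in deficient and 81.8 ± 4.90 CPM per kilobase in wildtype libraries, again without overlap.

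The size of the balance depended on the length. Its direction could hardly do so, since lengths mainly reweight the 3 E protein genes and none of these fell as far as Id2. The same direction on several scales is thus no added support. With median coding transcript length the ratio was 0.455, 1.04 and 0.956 in deficient libraries 1 to 3 and 4.83, 3.19 and 3.14 in wildtype libraries 1 to 3. In plain CPM, with no correction for length, it was 0.160, 0.359 and 0.336 in deficient and 1.86, 1.23 and 1.24 in wildtype libraries. Deficient libraries were below wildtype libraries on all 3 scales. The tight grouping of wildtype libraries held on the merged exon scale only: the wildtype SD of the log2 ratio was 0.08 there, 0.35 with coding transcript length and 0.34 in plain CPM.

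**Figure D3:**
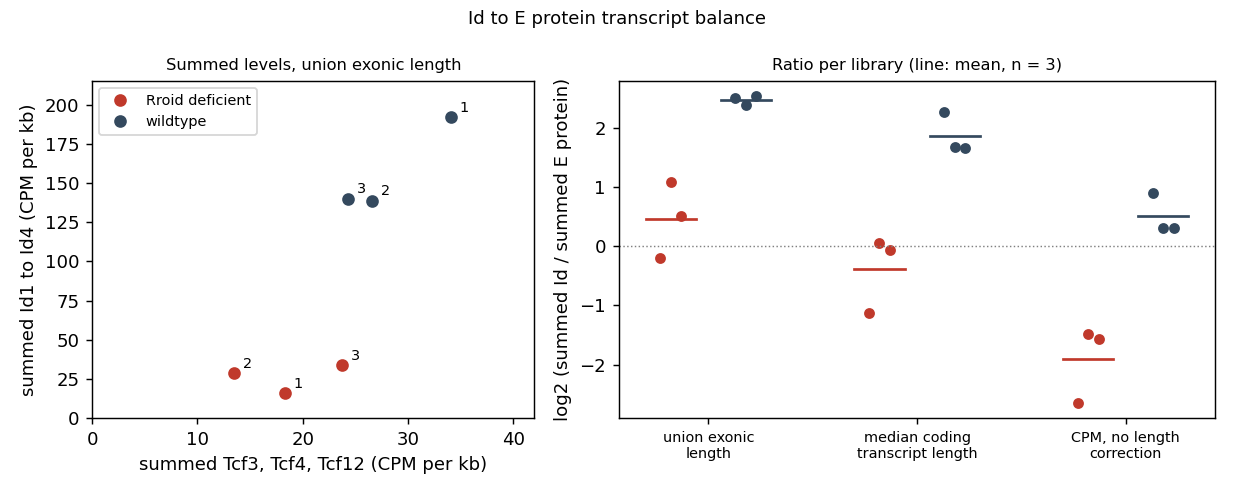
Left, summed Id against summed E protein level per library in CPM per kilobase of merged exon, numbered by replicate. Right, log2 of their ratio per library on 3 scales, with means (n = 3); deficient libraries are lower on each, at 0.46 against 2.47 on the first.

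Set against each E protein gene alone, Id2 stood differently. The log2 ratio of Id2 to Tcf12, in CPM per kilobase of merged exon, was 0.46, 1.53 and 1.61 in deficient and 4.65, 3.83 and 3.89 in wildtype libraries, a mean difference of -2.92. For Tcf4 it was 3.36, 4.51 and 5.09 in deficient and 7.45, 5.87 and 5.55 in wildtype libraries, a mean difference of -1.98. These pairs did not overlap, and both contain Id2, which did not overlap on its own. The log2 ratio of Id2 to Tcf3 was 1.65, 3.30 and 1.49 in deficient and 2.92, 3.26 and 3.56 in wildtype libraries, a mean difference of -1.10 with overlap. In deficient library 2, which had the least Tcf3, Id2 stood as far above Tcf3 as in wildtype libraries.

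The make-up of the E protein sum is described without a test. Tcf12 gave 63.5%, 70.4% and 45.8% of it in deficient libraries 1 to 3, against 22.4%, 36.6% and 38.8% in wildtype libraries 1 to 3, per kilobase of merged exon. With median coding transcript length the Tcf12 share was 61.9% ± 3.74 in deficient and 39.3% ± 3.05 in wildtype libraries (SD, n = 3 each). The groups did not overlap on either scale. By level, 6.03% of all tested genes lay wholly higher in deficient libraries. The Tcf3 share was 27.9%, 20.7% and 50.0% in deficient and 74.4%, 54.5% and 48.9% in wildtype libraries per kilobase of merged exon, where deficient library 3 overlapped. On that scale the Tcf4 share also overlapped, at 7.19% ± 2.66 in deficient and 8.13% ± 4.58 in wildtype libraries. Shares sum to 100%, so those of the 3 genes are not independent of each other.

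**Figure D4:**
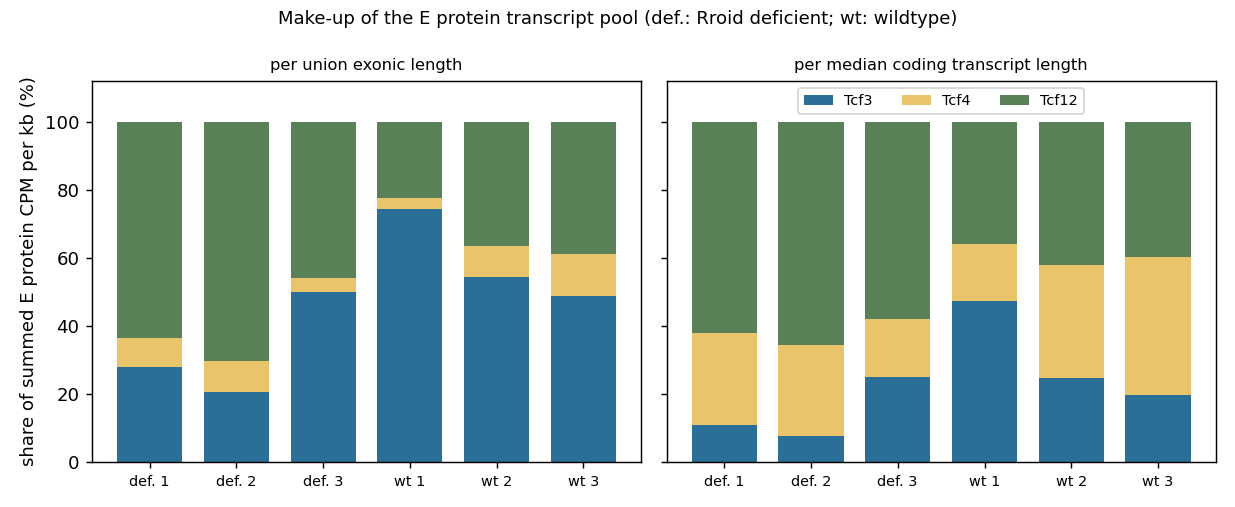
Share of the summed E protein level, in percent, given by Tcf3, Tcf4 and Tcf12 in each library, per kilobase of merged exon (left) and of median coding transcript (right). The Tcf12 share is at least 45.8% in every deficient library and at most 38.8% in every wildtype library on the left.

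The genes whose pattern over the 6 libraries was most like that of Id2 were Nudt3, Lsm4, Mvb12b, Khdc1a and Nrarp. Likeness was the root mean square difference of centred log2(CPM + 1) values, over 6154 other genes that averaged 20 CPM or more, and it was 0.35 for Nudt3, 0.52 to 0.56 for the others and 1.44 for the median gene. Nudt3, a Nudix hydrolase gene, had 10.8, 10.6 and 16.04 CPM in deficient libraries 1 to 3 and 82.7, 61.5 and 43.7 CPM in wildtype libraries 1 to 3. Nrarp, a Notch-induced inhibitor of Notch signalling, had 10.95, 8.65 and 30.7 CPM in deficient and 64.9, 53.4 and 60.4 CPM in wildtype libraries. Lsm4, part of an RNA-processing ring, had 14.2 ± 6.86 CPM in deficient and 44.0 ± 6.25 CPM in wildtype libraries. Mvb12b, of the endosomal sorting machinery, had 7.51 ± 3.18 CPM in deficient and 42.5 ± 14.2 CPM in wildtype libraries. Khdc1a had 24.5 ± 7.98 CPM in deficient and 91.4 ± 24.1 CPM in wildtype libraries. All 5 lay lower in deficient libraries without overlap, as the choice by likeness to Id2 fixes, and none passed over all genes (edgeR adjusted p 0.543 to 0.895).

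Tissue-restricted partners of E proteins, such as Tal1, Lyl1 and Myod1, were nearly absent. Of 22 listed, 19 had no read in any library and none reached the test; Hand1 had 52 counts in deficient library 1 and 0 in the other 5 libraries, and Bhlha15 had at most 1 count in any library. Other helix-loop-helix genes, such as those of the Myc and Hif families, had 28 tested members of 37, with a median log2 fold change of 0.05, where the median of all tested genes was 0.02. Arnt, the dimer partner of hypoxia factors, had the smallest p, at 142 ± 28.2 CPM in deficient and 87.6 ± 31.8 CPM in wildtype libraries, and Usf2 followed at 42.1 ± 27.8 CPM in deficient and 21.6 ± 7.78 CPM in wildtype libraries. E protein cofactors had 13 tested members of 17 and a median log2 fold change of 0.03. The corepressor gene Cbfa2t3 had 93.7, 80.1 and 66.5 CPM in deficient and 58.9, 53.2 and 59.3 CPM in wildtype libraries, without overlap, where 6.03% of tested genes lay wholly higher in deficient libraries, and the acetyltransferase gene Crebbp 444 ± 62.4 CPM in deficient and 367 ± 58.8 CPM in wildtype libraries. No member of these lists passed in edgeR, none had an unadjusted p under 0.05, and none passed in DESeq2, limma-voom or edgeR without the filter.

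Genes reported to be under E protein or Id control in lymphocytes had log2 fold changes spread to both sides. Of 40 listed, 26 were tested and none passed in edgeR or limma-voom, with 5 at an unadjusted p under 0.05, as had 5.29% of all tested genes; 14 had positive and 12 negative log2 fold changes, with a median of 0.16. DESeq2 on the same genes called 3 of 26, Cd3g, Cd3d and Myb, all higher, where it called 0.569% of all genes. Without the filter, edgeR called the same 3 genes, where it called 0.495%. The list was written with earlier results of these data known, so these counts are a description only. Cd3g, which encodes the gamma subunit of the T cell receptor's CD3 module, had 67.2, 54.8 and 68.2 CPM in deficient libraries 1 to 3 and 5.69, 4.62 and 8.34 CPM in wildtype libraries 1 to 3. Its neighbour in function Cd3d had 24.1, 56.6 and 67.1 CPM in deficient and 4.94, 6.76 and 8.65 CPM in wildtype libraries. Both are on the T cell marker list, whose deficient sum they mostly carry, while Cd3e of the same complex was at or near 0 and Cd4 and Cd8b1 had reads in wildtype library 1 alone. Classic E protein targets of early lymphocytes had few or no reads: Ptcra and Igll1 had none, Rag1 had 4 counts in wildtype library 3 alone, and Rag2 had 2 counts in deficient library 3 and 4 in wildtype library 3. These 4 genes and the absent partners were named after their values were seen.

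Genes that act upstream of Id genes or on Id proteins gave no call. BMP and SMAD genes had 12 tested members of 20, none passing in edgeR and 1 at an unadjusted p under 0.05, with a median log2 fold change of 0.02. That gene was Smad7, an inhibitory SMAD, at 28.5, 11.9 and 25.9 CPM in deficient and 137, 30.5 and 26.7 CPM in wildtype libraries, where wildtype library 1 stands alone. Smad5, a BMP signal carrier, had 89.4 ± 37.9 CPM in deficient and 54.8 ± 17.9 CPM in wildtype libraries. Other reported regulators of Id2 had all 18 members tested, none passing and 1 at an unadjusted p under 0.05, with a median of 0.03. Foxo3, a forkhead factor, had 67.9, 68.7 and 88.8 CPM in deficient and 126, 121 and 124 CPM in wildtype libraries (log2 fold change -0.72, edgeR adjusted p = 0.906). Its genotypes did not overlap, where 6.33% of tested genes lay wholly lower in deficient libraries. Eomes, a T-box factor of NK cells, had 474 ± 60.6 CPM in deficient and 627 ± 160 CPM in wildtype libraries. Genes of Id protein turnover had 10 tested members of 11 with a median of -0.11, none passing and none at an unadjusted p under 0.05. Wdr48, the cofactor of the Id deubiquitinase Usp1, had 34.3 ± 11.7 CPM in deficient and 54.9 ± 12.6 CPM in wildtype libraries, and the ubiquitin ligase gene Smurf2 had 119 ± 22.8 CPM in deficient and 78.1 ± 37.9 CPM in wildtype libraries. DESeq2, limma-voom and edgeR without the filter also called no member of the last 3 lists.

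**Figure D5:**
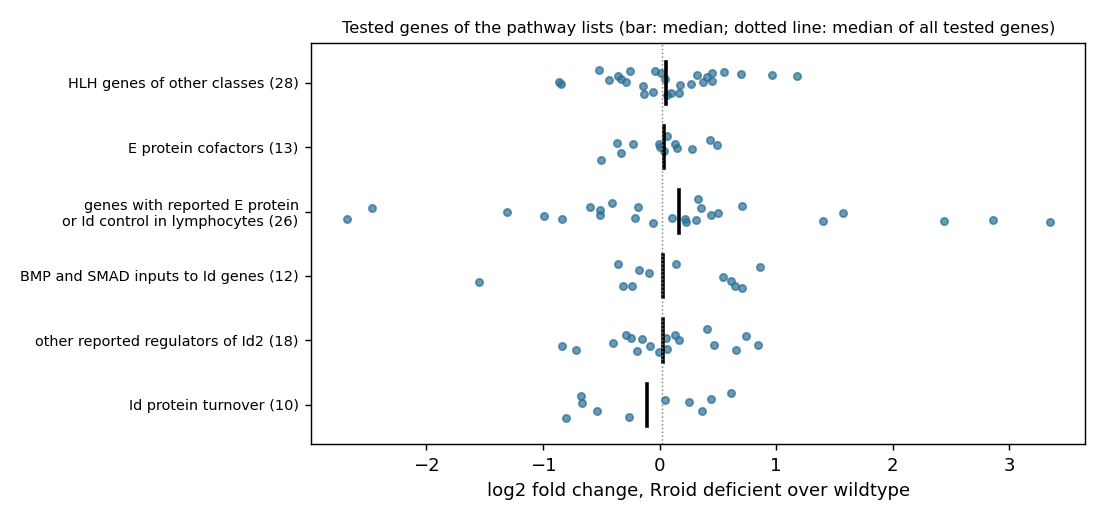
Log2 fold change, deficient over wildtype, of each tested gene in the 6 lists with tested members (number tested in brackets), with the list median as a bar and the median of all tested genes, 0.02, as a dotted line. The medians lie between -0.11 and 0.16, and single genes of the lymphocyte list lie far out on both sides.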

How the data were processed

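RNA of 3 Rroid deficient and 3 wildtype libraries was amplified without strand marking and read from 1 end, per the labels' protocols. Per the submitters' processing notes, Trimmomatic 0.33, TopHat2 2.1.0, HTSeq 0.6.1 and DESeq2 were used, with builds NCBIM37 and mm9; their settings are not stated. The authors deposited raw counts per Ensembl gene for each library. The 5 closing rows that name no gene held 80.0% to 84.4% of listed reads and were left out. Of the 37991 genes, 32919 were given a symbol through an Ensembl table; lengths came from GENCODE on GRCm38, another build than that of the counts. No other annotated exon overlapped a member, apart from Id4.

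Libraries were grouped by title. The labels do not tie them to separate mice, so the p-values may reflect technical spread alone. Every pair of libraries differed beyond counting noise (chi-square over its degrees of freedom 19.2 or more). The test was edgeR 4.0.16 in R 4.3.3 with TMM, filterByExpr, quasi-likelihood and Benjamini-Hochberg adjustment, threshold 0.05. Run on simulated data, it recovered only part of the changed genes and made some false calls. Alternatives used RLE or upper quartile scaling, DESeq2 1.42.0, limma 3.58.1 voom, no or a stricter filter (10 counts in 3 libraries and a mean of 2 CPM), a replicate block, and libraries left out. Members and gene lists were chosen with earlier results of these data known. Named list genes were the 2 of smallest p where none passed, with the exceptions stated. Myb, Cd3e and marker genes are named with counts, CPM, overlap or calls only. Figures used matplotlib 3.10.9.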

Additional observations from a re-analysis of the deposited data

How the results depend on the processing

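The Id2 log2 fold change was negative under all 15 alternatives and past the threshold under 7 of them: both other scalings, DESeq2 with and without the filter, limma-voom, no filter and the stricter filter. It kept its direction but not its call with a replicate block (-2.66, edgeR adjusted p = 0.309), with single libraries left out (-2.86 to -2.37, unadjusted p 7.17e-06 to 5.10e-05) and without wildtype 1 and deficient 1 (-2.20, adjusted p = 0.0791, chosen after seeing the data). In each of these fits the number of passing members was 0 and the number of passing genes 0, with 455 genes at an unadjusted p under 0.05 under the block, 508 to 966 with a library left out and 767 without both libraries; the threshold of 0.01 also left 0 members and 0 genes. DESeq2 called 88 genes without the filter and 65 with it, edgeR without the filter 98 and limma-voom 1, against 2 in the edgeR fit, with Id2 among them each time; the cause was not tested. Deviations of same-numbered libraries had correlations of 0.000255, -0.0165 and 0.0200 for numbers 1, 2 and 3. No deficient library correlated best with the wildtype library of its own number, and of the wildtype libraries only number 3 correlated best with its own. With so few libraries per genotype, these values cannot decide whether the replicate numbers pair libraries, which the labels do not state. Tcf3, Tcf4 and Tcf12 kept direction and stayed uncalled under all 15 alternatives. The difference in log2 balance was -1.08 over Tcf3 alone and -2.90 over Tcf12 alone, against -2.002 over the sum, since these genes differ in fold change; it was -2.31 to -1.67 with a library left out. Depth limits statements on Id1, Id3 and Id4.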
